A study of Mus musculus with 3 samples.

Results

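The DiBA array was set against the BA array, which are 2 of the 3 samples of a mouse gene expression series. DiBA is the name the labels give to cultured cells, and by the title of the series the study concerned brown adipocytes made by direct conversion, that is, from another cell type without a stem cell stage. BA has brown adipose tissue as its labelled source, while its description names cultivated cells, so the labels do not settle whether it was tissue or culture. The remaining array holds cultured mouse fibroblasts and serves here to sort the genes that differed. No strain, genotype, age, time in culture or conversion agent is given in the labels, and the same culture conditions are stated for all 3 samples. Total RNA was measured on 1 Affymetrix array per sample, so the spread between replicates is unknown, nothing was tested for significance, and a difference describes these arrays only.

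The comparison covers 19938 genes named by probe sets with a single gene symbol. Values are intensities in arbitrary units, and differences are DiBA minus BA on the log2(intensity + 1) scale, which understates the difference of dim genes. A gene entered the count of differing genes where the higher of both arrays reached 69.2, the median intensity of the whole data set. This level filter passed 11076 genes. The array medians were 71.5 for DiBA, 67.7 for BA and 67.8 for fibroblasts. The DiBA array carried skeletal muscle, endothelial and MHC class II markers near their BA intensities, although its label names cultured cells. It also held both Xist and Y-linked transcripts, as did the fibroblast array, where both lay above 69.2. Whether the RNA of the DiBA array came only from the cells its label names is therefore not settled, and DiBA here means the library so labelled. In bulk RNA, fewer cells of a type and less RNA per cell cannot be told apart.

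Brown adipocytes burn fatty acids in mitochondria whose inner membrane holds the uncoupling protein Ucp1, which turns the proton gradient into heat. They descend from mesenchymal precursors, and precursors that differentiate leave the cell cycle and reduce their output of fibrous matrix while lipid and mitochondrial genes come on. Prdm16 and Cebpb encode transcription regulators that act together in setting up the brown fat programme.

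DiBA exceeded BA by 2-fold or more in 194 of the 11076 genes (1.75%) and lay that far under it in 0 (0%). The difference was 4-fold or more in 33 of the 194 and 8-fold or more in 7. The middle of the distribution was narrow: the lower quartile of the difference was -0.10, the median 0 and the upper quartile 0.05. The deposited values of 2897 genes were exactly equal in both arrays. Emp3 at 1.01 and Ugcg at 1.01 lay just inside the 2-fold threshold, and Bmp4 at 0.998, S100a4 at 0.99 and Igsf10 at 0.98 lay just outside. At a threshold of 1.5-fold, 456 genes were higher and 11 lower. With no threshold the order was the reverse, with 3609 of the 11076 genes higher in DiBA (32.6%), 4570 lower (41.3%) and the rest equal. Higher genes were still in excess at high fibroblast levels, with 1719 higher and 1356 lower from 277 to 1107, and 547 and 246 over 1107. Thresholds under 1.5-fold were not run. In BA, 96 of the 194 lay under 69.2, where background makes up much of a value.

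Sorted by fibroblast level, the share of higher genes was 5.98% (53 of 887) where fibroblasts exceeded 1107, 2.45% (96 of 3925) from 277 to 1107, 0.583% (31 of 5314) from 69.2 to 277, and 1.47% (14 of 950) under 69.2. The median difference of all genes in these 4 ranges was 0.05, 0, 0 and -0.19. In the lowest range, 764 of 950 genes were lower in DiBA by any amount and 99 were higher. The scatter of difference against fibroblast intensity therefore tilts upward, with 14 higher genes also at its low end.

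**Figure D1:**
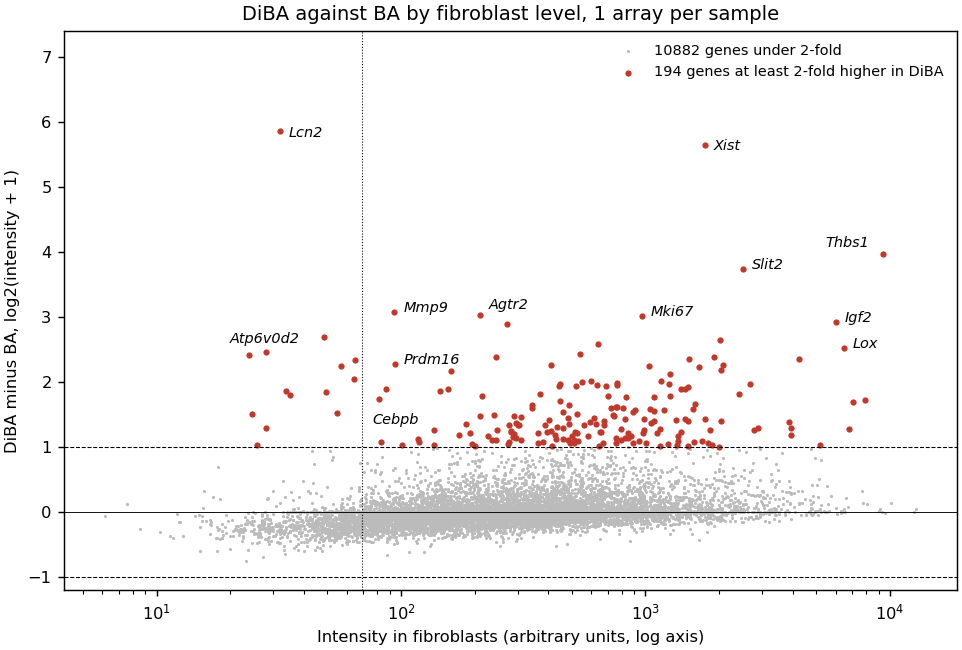
DiBA minus BA on the log2(intensity + 1) scale (vertical) against the fibroblast intensity (horizontal, log axis) for the 11076 genes that passed the level filter, 1 array per sample. Red points are the 194 genes that DiBA held 2-fold or more above BA, dashed lines mark 2-fold, the dotted line marks 69.2, and no gene lies below the lower dashed line.

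Of the 194 higher genes, 162 (83.5%) had a fibroblast intensity at or above that of DiBA, 18 (9.28%) lay between BA and DiBA in fibroblasts, and 14 (7.22%) lay at or below BA. Fibroblasts were at or above DiBA in 59.5% of all genes that passed the filter. In the group of 162, the place of DiBA between the other arrays follows from how the group was defined, and only the size of the steps is a measurement. In the group of 162, median intensities were 756 in fibroblasts, 206 in DiBA and 71.7 in BA. DiBA therefore stood at a median of 28.8% of the fibroblast intensity (quartiles 18.9% and 41.1%) and BA at 10.4% (lower quartile 6.91%). In 135 of the 162, fibroblasts were at least 2-fold above DiBA. The plot of all 194 genes shows the DiBA points between the other arrays over most of the range and above both at its right end.

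**Figure D2:**
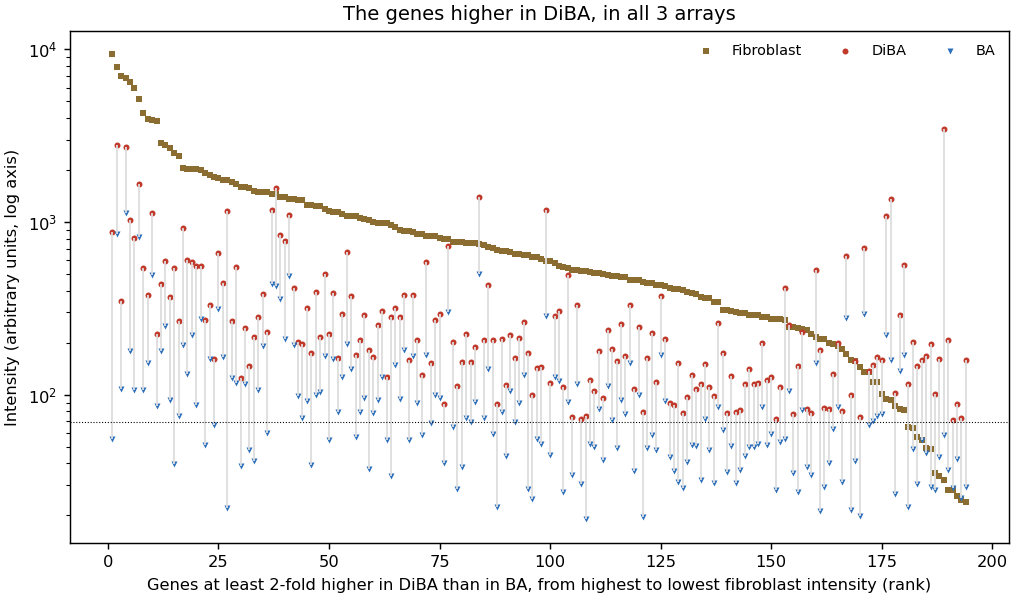
Intensity (log axis, arbitrary units) of the 194 genes that exceeded BA by 2-fold or more in DiBA, ordered from highest to lowest fibroblast intensity, with squares for fibroblasts, circles for DiBA and triangles for BA. For 162 genes the fibroblast square lies at or above the DiBA circle, and the dotted line marks 69.2.

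Extracellular matrix genes with high fibroblast intensities were among the brightest of the higher genes. Thbs1, which encodes the adhesive glycoprotein thrombospondin 1, had an intensity of 9341 in fibroblasts, 881 in DiBA and 55.5 in BA. DiBA was 15.6-fold above BA, or 12.6-fold with intensities under 69.2 raised to it. Fn1, the fibronectin gene, had 7920 in fibroblasts, 2799 in DiBA and 850 in BA, a 3.29-fold difference between DiBA and BA. Both genes were well above the median in DiBA and still far below fibroblasts.

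Among 30 measured matricellular, adhesive and elastic matrix genes, all of which passed the level filter, 7 passed 2-fold in the direction of DiBA and 0 in that of BA, with a median difference of 0.52 against 0 over all measured genes. Vcan, a large proteoglycan of loose matrix, stood at 553 in DiBA and 87.6 in BA. Bgn, a small leucine-rich proteoglycan, stood at 2732 and 1130. The other members past 2-fold, beside Thbs1 and Fn1, were Mfap4 at 1.61, Fbn2 at 1.59 and Fmod at 1.14. Mfap5, a microfibril gene, went the other way at -0.53.

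Enzymes that crosslink or hydroxylate collagen were also higher in DiBA in part. Lox, the copper enzyme that crosslinks collagen and elastin, had 6467 in fibroblasts, 1033 in DiBA and 179 in BA. Plod2, a lysyl hydroxylase, was 3.79-fold and P4ha3, a prolyl hydroxylase subunit, 3.17-fold higher in DiBA. With low intensities raised to 69.2, P4ha3 differed 1.78-fold, since its BA value was 38.5. These were 3 of 14 measured crosslinking and hydroxylation genes (13 passed the filter), with a median of 0.41. Of 22 collagen chain genes (21 passed), 2 were higher, Col8a1 at 2.19 and Col12a1 at 1.38, and the median was 0.28. Col1a1, a chain of type I collagen and the most abundant product of many fibroblasts, was at 854 in DiBA and 637 in BA, a difference of 0.42.

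Of 25 measured matrix proteases and inhibitors, 20 passed the filter, and DiBA was above BA by 2-fold or more in 4. Timp1, a secreted inhibitor of metalloproteases, had 1912 in fibroblasts, 272 in DiBA and 51.2 in BA. Adamts1, a protease that cuts proteoglycans, was 2.40-fold higher. The gelatinase gene Mmp9 and the macrophage elastase gene Mmp12 also passed 2-fold but were low in fibroblasts. The list's median was 0.22, so most of its members differed little.

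Over all passing genes, 1.75% were higher in DiBA by 2-fold or more, and mitosis genes formed the list with the highest share of such members. Of 31 measured, 20 passed the level filter, 13 had a DiBA value 2-fold or more above BA and 0 the reverse, and 30 of 31 were higher by any amount, against 24.1% of all measured genes and 32.6% of those that passed the filter. Their median difference was 1.08. Mki67, a chromosome coat protein used as a proliferation marker, had 963 in fibroblasts, 281 in DiBA and 34.0 in BA. Ccna2, a cyclin of S phase and mitosis, had 1258, 175 and 39.3 in the same order. Ccnb2, a mitotic cyclin, had 1154, 225 and 54.9. In each, DiBA lay between the other arrays and nearer to BA than to fibroblasts on the linear scale.

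The kinesin genes Kif11 and Kif20a, the exchange factor gene Ect2 of cell division and the checkpoint kinase gene Bub1 were 3.99-fold, 3.88-fold, 3.87-fold and 3.82-fold higher in DiBA. All were under 29 in BA, and with low intensities raised to 69.2 they differed 1.60-fold, 1.44-fold, 1.62-fold and 1.27-fold. Of the 31 mitosis genes, 26 lay under 69.2 in BA and 11 in DiBA. Raising them left 6 genes of the mitosis and DNA replication lists together at 2-fold or more, out of 17. Raising low values cannot reverse a direction, and genes under 69.2 in both arrays become equal, so it does not test the direction. The median of the mitosis list fell to 0.36, so the size rests on low BA values.

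DNA replication genes differed less. Of 29 measured, 24 passed the filter and 4 passed 2-fold, all higher in DiBA, against 1.75% of all passing genes. The median was 0.37. Mcm6, a subunit of the replicative helicase, had 115 in DiBA and 32.1 in BA. Rrm2, the regulated subunit of ribonucleotide reductase, was at 159 and 54.5, Mcm2 at 190 and 90.7, and Pole at 77.0 and 35.3. With low intensities raised to 69.2, Mcm6 was at 1.66-fold and Pole at 1.11-fold, so 2 of the 4 stayed past 2-fold, and Mcm2 was just under it, at 0.98, with each array centred on its median. Pcna, the sliding clamp, differed by only 0.12. Of 25 measured cyclins, kinases, inhibitors and E2F factors that govern entry into the cycle, 22 passed the filter and 0 reached 2-fold. With 1.75% of all passing genes past 2-fold, 0 in a list of this length does not set these genes apart. Their median was 0.11, and Ccnd2 had the largest difference at 0.75.

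Promoters of the mitosis genes share short sequence elements that were not used in the comparison. In the RefSeq promoter table (GRCm38.p6, 250 bases before to 50 after a start), both strands were searched and overlaps between motifs were allowed. The letters TTTGAA, the cell cycle homology region of many G2 and mitosis genes, were in 23 of 29 promoters (79.3%) of 27 matched mitosis genes, against 14.8% of the 19177 promoters of measured genes and 17.9% of all 32851 promoters. The letters CCAAT, bound by NF-Y, were in 22 of the 29 (75.9%), against 37.4% of all promoters. For the 194 higher genes as a whole, of which 147 matched, TTTGAA was in 15.8% and CCAAT in 43.5% of 184 promoters, against 17.9% and 37.4% of all promoters. The E2F letters GGCGGGAA were in 7 of 30 DNA replication promoters (23.3%), against 2.19% of all, and in 0 of the 29 mitosis promoters. In all, 5 motifs were searched. The C/EBP letters TTNNGNAA (N for any base) were in 32.1% of the promoters of the higher genes, against 36.0% for measured genes. The NF-kappaB letters GGANNTTCC were in 1.09%, against 4.28%. A match is a run of letters and no measured binding.

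The 150 bases before the start are shown for the higher mitosis genes that held both TTTGAA and CCAAT there, with each match on either strand in capitals, read 5′ to 3′ on the gene's strand. They lie at chr7:135716380-135716529 (minus strand) for Mki67, chr19:37376232-37376381 (plus) for Kif11, chr3:27153879-27154028 (minus) for Ect2 and chr4:52439071-52439220 (plus) for Smc2, a condensin subunit gene with a difference of 1.08, or 1.55-fold with low intensities raised to 69.2. Mki67 holds TTTGAA at 2 places after a CCAAT, and in Kif11 both elements read on the opposite strand. A further listed start of Ect2 also held both, with 3 CCAAT and 1 TTTGAA in chr3:27153855-27154004, which overlaps the stretch shown.
Mki67: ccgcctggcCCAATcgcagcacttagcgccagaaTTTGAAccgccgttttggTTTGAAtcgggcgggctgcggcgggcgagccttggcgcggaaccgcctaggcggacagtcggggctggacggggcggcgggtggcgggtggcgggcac
Kif11: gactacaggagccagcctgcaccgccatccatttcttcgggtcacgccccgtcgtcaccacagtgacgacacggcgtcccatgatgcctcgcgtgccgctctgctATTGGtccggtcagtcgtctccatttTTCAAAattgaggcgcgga
Ect2: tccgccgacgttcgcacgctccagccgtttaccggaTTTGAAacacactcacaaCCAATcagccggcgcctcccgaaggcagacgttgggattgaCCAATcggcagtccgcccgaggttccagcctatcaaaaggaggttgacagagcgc
Smc2: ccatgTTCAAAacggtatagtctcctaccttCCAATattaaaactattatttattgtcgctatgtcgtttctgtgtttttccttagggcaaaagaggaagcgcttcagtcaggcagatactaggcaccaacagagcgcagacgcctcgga

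On the growth factor and guidance lists together, 14 of 57 passing genes were higher in DiBA by 2-fold or more. The share was 1.75% over all passing genes, 2.45% from 277 to 1107 in fibroblasts and 5.98% over 1107. Of 43 measured growth factor, TGF-beta family and Wnt pathway genes, 37 passed the filter and 9 reached 2-fold with DiBA above BA, the median being 0.29. Igf2, a fetal growth factor, had 5998 in fibroblasts, 809 in DiBA and 106 in BA. The Wnt antagonist genes Sfrp2 and Sfrp1 had 1583 and 674 in DiBA against 427 and 196 in BA. Sfrp2 in DiBA was also above its fibroblast intensity of 1451, unlike Sfrp1 at 1088 in fibroblasts. Igfbp4, which binds insulin-like growth factors, stood at 746 in fibroblasts, 1401 in DiBA and 503 in BA, so DiBA was the highest of the 3 arrays. The receptor gene Igf1r was 2.65-fold and Fgf2 2.41-fold higher in DiBA than in BA.

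Of 24 measured guidance genes, 20 passed and 5 were higher. Slit2, a secreted guidance protein, had 2511 in fibroblasts, 539 in DiBA and 39.5 in BA. Its receptors Robo1 and Robo2 had 227 and 74.5 in DiBA, and 58.6 and 19.8 in BA. With low intensities raised to 69.2, Slit2 differed 7.69-fold, Robo1 3.24-fold and Robo2 1.08-fold, so the size for Robo2 rests on background. Unc5c, a netrin receptor, and Sema3d passed 2-fold at 1.38 and 1.02 but were at 1.69-fold and 1.19-fold with low intensities raised, which left 2 of the 5 past 2-fold. Sema3d was also under 2-fold with arrays centred on their medians, at 0.94, and after quantile normalization, at 0.96.

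The probe set of the microRNA gene Mir218-1 differed by 1.64, with 344 in fibroblasts, 98.7 in DiBA and 30.9 in BA, or 1.42-fold with low intensities raised to 69.2. It was singled out after its value was seen, because Mir218-1 (chr5:48223942-48224051) lies inside the Slit2 gene (chr5:47981291-48307735, GRCm38.p6). Signal of the host transcript and of the hairpin cannot be told apart on this array, which does not measure the mature product. The RefSeq sequence of that product follows, with its seed, bases 2 to 8, in capitals, to identify the RNA that the gene encodes.
mmu-miR-218-5p: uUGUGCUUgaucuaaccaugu

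Imprinted genes, expressed from 1 parental copy and mostly active in growing embryonic tissue, had 5 of 23 measured members past 2-fold with DiBA above BA (17 passed the filter), against 1.75% of all passing genes. Besides Igf2 these were Peg10, with 552 in DiBA and 117 in BA, Mest with 370 and 93.8, Plagl1 with 393 and 99.7, and Dlk1 with 440 and 179. Dlk1 encodes the preadipocyte factor that restrains adipocyte differentiation. All 5 were at 1246 or more in fibroblasts. Nnat, at -0.36, was lower in DiBA, and the list's median was 0.27.

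Of 52 measured Hox and other positional transcription factors, 31 passed and 2 were higher, the limb mesenchyme gene Prrx2 at 1.22 and Osr1 at 1.17, with a median of 0. Of all passing genes, 1.75% were higher by 2-fold or more. Hox genes of the list did not reach 2-fold. Hoxd10, which is not on the list and was singled out after its value was seen, differed by 1.35, with 80.7 in DiBA and 31.1 in BA, or 1.16-fold with low intensities raised to 69.2.

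A smaller group of genes was higher in DiBA than in both other arrays. Lcn2, which encodes the iron-siderophore binding protein lipocalin 2, had 32.0 in fibroblasts, 3472 in DiBA and 58.7 in BA. DiBA was 58.2-fold above BA, or 49.5-fold with low intensities raised to 69.2, the largest difference in the table either way. Mmp9 had 93.7 in fibroblasts, 1351 in DiBA and 160 in BA, and Lbp, the lipopolysaccharide binding protein gene, 81.5, 565 and 169. The intensities of these 3 genes in DiBA exceeded both other arrays by at least 3.32-fold.

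Atp6v0d2, a proton pump subunit of osteoclasts and macrophages, had 208 in DiBA, 36.8 in BA and less than that in fibroblasts. Fgl1, a fibrinogen-like secreted protein, and Slfn4, a myeloid Schlafen gene, were at 160 and 161 in DiBA and under 44 in both other arrays. Tgm1, a transglutaminase, was at 159 against 54.5 in each of the others. With low intensities raised, these 4 differed 2.97-fold, 2.29-fold, 2.31-fold and 2.28-fold. The remaining genes at or below BA in fibroblasts were Clu at 1.18, Cd55 at 1.07, Acpp at 1.29, Ncam2 at 1.04, Ly6a2 at 2.83-fold, Prdm16 and Cebpb. Acpp, Ncam2 and Ly6a2 were under 2-fold with low intensities raised, at 1.03-fold, 1.27-fold and 1.06-fold.

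Among genes with a fibroblast value between BA and DiBA, Emb, a cell adhesion protein gene, was at 416 in DiBA and 55.1 in BA, and Penk, which encodes proenkephalin, at 1167 and 287. Pi15, a peptidase inhibitor gene, was at 196 and 29.4, and Nptx1 at 202 and 48.4. Hpse2 differed by 2.25, Cxcl5, a neutrophil chemokine, by 2.33 and Rspo2, a Wnt agonist, by 1.89. Cxcl5 and Rspo2 were under 2-fold, at 1.67-fold and 1.47-fold, with low intensities raised to 69.2.

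Inflammatory genes shared no direction. Of 34 measured cytokine, acute phase and prostaglandin genes, 19 passed and 4 were past 2-fold in DiBA: Lcn2, the inducible prostaglandin synthase gene Ptgs2 at 5.13-fold, Ptx3 at 3.12-fold and Il1rn, an interleukin 1 antagonist, at 2.83-fold. The median was 0, with 12 members higher, 13 lower and 9 equal. The acute phase genes Hp, at 2283 in DiBA and 1840 in BA, and Orm1, at 1375 and 1621, were bright in both arrays and differed in opposite directions. Of 25 chemokine genes, 15 passed and 2 were higher, Cxcl5 and Ccl3, the latter at 156 in both DiBA and fibroblasts and 41.3 in BA. Of 19 interferon response genes, 13 passed and 0 reached 2-fold, against 1.75% of all passing genes, with a median of 0. At that share, 0 in a list of this length does not set it apart.

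Regulators of brown fat identity differed by 2-fold or more in 2 of 41 measured members, 35 of which passed the filter, against 1.75% of all passing genes. Prdm16 had 94.3 in fibroblasts, 1084 in DiBA and 223 in BA, a 4.85-fold difference. Cebpb had 136, 711 and 295, a 2.40-fold difference. In both genes DiBA was the highest of the 3 arrays. Zfp521, which opposes brown differentiation, and Klf5 followed at 0.64 and 0.61. Pparg, the master regulator of fat cells, stood at 2969 in DiBA and 3196 in BA, Ppargc1a at 531 and 595, Cebpa at 1548 and 1818, and Ppara at 1827 and 2179. The list's median was -0.05, with 9 members higher, 24 lower and 8 equal. Of the 41, 12 lay under 69.2 in fibroblasts, where 80.4% of passing genes were lower, against 37.6% at or above it.

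Thermogenic and adipocyte genes had 0 members past 2-fold, and their medians lay under 0. Of all passing genes 1.75% were past 2-fold, so 0 in a list of this length, here or below, does not set it apart. Ucp1 had 4598 in DiBA and 4995 in BA, or 92.1% of BA, against 23.5 in fibroblasts. Cidea, a lipid droplet protein, stood at 92.0% of BA and the adipokine gene Adipoq at 96.7%. Of 26 measured thermogenic genes, 20 were lower by any amount and 2 higher, and 0 reached 2-fold. Lower by any amount were 30.8% of all measured genes, 41.3% of those passing the filter, and 80.4% of those passing it with fibroblasts under 69.2, where 17 of the 26 lay. At or above 69.2 in fibroblasts the share was 37.6%, so no single share is the reference for this list. Of the 26, 23 passed the filter. Ckmt2, the mitochondrial creatine kinase gene, had the lowest value at 71.8% of BA. The median over the list was 89.6% of BA.

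Of 40 general adipocyte genes, 35 were lower and 5 higher in DiBA by any amount, with a median of 91.9% of BA. Of the 40, 15 lay under 69.2 in fibroblasts, where 80.4% of passing genes were lower, against 37.6% at or above it. Retn, Lipe and Slc2a4 stood at 86.8%, 87.5% and 86.8%. Scd2, a fatty acid desaturase, was the exception at 174% of BA, with a fibroblast intensity of 5224. Of 44 oxidative phosphorylation and citric acid cycle genes, 0 of which lay under 69.2 in fibroblasts, 39 were lower against 37.6% of all passing genes at such fibroblast levels, with a median of 91.8% and a range from 81.7% for Cox5a to 105%. Of 27 fatty acid oxidation genes, 5 of them under 69.2 in fibroblasts, 24 were lower, with a median of 91.1%. Cpt1a, which admits fatty acids to mitochondria, went the other way at 170%, with 395 in DiBA and 233 in BA. No member of these 4 lists reached 2-fold, and their medians on the log2 scale, from -0.16 to -0.12, shifted to between -0.24 and -0.20 with each array centred on its median. The median over all passing genes shifted by the same step, from 0 to -0.08, so the distance of the lists from it was unchanged.

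Markers of other cell types were present in DiBA at levels near those in BA. Among passing genes, 80.4% were lower by any amount where fibroblasts were under 69.2, and 37.6% where they were not. Under 69.2 in fibroblasts lay 10 of 30 skeletal muscle, 12 of 19 endothelial, 10 of 14 MHC class II and 11 of 27 macrophage and leukocyte markers. Of 30 skeletal muscle markers, 25 were lower in DiBA and 2 higher, 0 reached 2-fold, and the median was 88.6% of BA. Their summed intensity was 5307 in fibroblasts, 24720 in DiBA and 27988 in BA. Myh4, a fast myosin, had 41.2 in fibroblasts, 1142 in DiBA and 1295 in BA, and the calcium buffer gene Pvalb 42.7, 1841 and 2140. The muscle determination genes Myod1 and Myog lay under 69.2 in both DiBA and BA and at 128 and 82.3 in fibroblasts.

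Endothelial markers had the lowest median of these lists, 83.0% of BA, with 17 of 19 lower in DiBA, 1 higher and 1 equal. Their summed intensity was 1804 in fibroblasts, 5346 in DiBA and 6330 in BA. Cdh5, the endothelial cadherin, had 32.6, 1027 and 1188, and Sox18 stood at 76.1% of BA. Of 14 MHC class II presentation genes, 8 passed the filter, and 9 were lower, 2 higher and 3 equal by any amount, with a median of 90.6% of BA that came to no difference with low intensities raised to 69.2. Cd74 stood at 78.9%, H2-Aa at 84.5%, H2-DMa at 65.0% and the protease gene Ctss at 116% of BA. Their summed intensity was 1201 in fibroblasts, 3139 in DiBA and 3668 in BA.

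Of 27 macrophage and leukocyte markers, 15 were lower, 7 higher and 5 equal, with a median of 98.9%. Their summed intensity was 2877, 8874 and 8929 in fibroblasts, DiBA and BA. The lysosomal marker Cd68 was at 147% of BA, and Ptprc, the pan-leukocyte marker, had 117 in both. Gpnmb, a membrane glycoprotein known from lipid-laden macrophages that is on none of the lists, was at 493 in DiBA, 90.9 in BA and 540 in fibroblasts. Of 3 measured erythroid and 11 measured Schwann cell genes, of which 2 and 4 passed the filter, 0 reached 2-fold in either list, each with a median of 0. The part of these cell types in the differences between DiBA and BA was not tested.

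Fibroblast and mesenchymal markers differed little. Of 20 measured, 0 reached 2-fold, 13 were above BA and 7 under it, the median was 112% of BA, and S100a4 came closest at 0.99. Their summed intensity was 37633 in fibroblasts, 20333 in DiBA and 18908 in BA. Of 22 contractile genes, 1 passed 2-fold, Actn1 at 1.30, and the median was -0.06. The 13 housekeeping genes had 0 members past 2-fold, a median difference of 0 and a range from 92.1% to 125% of BA.

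**Figure D3:**
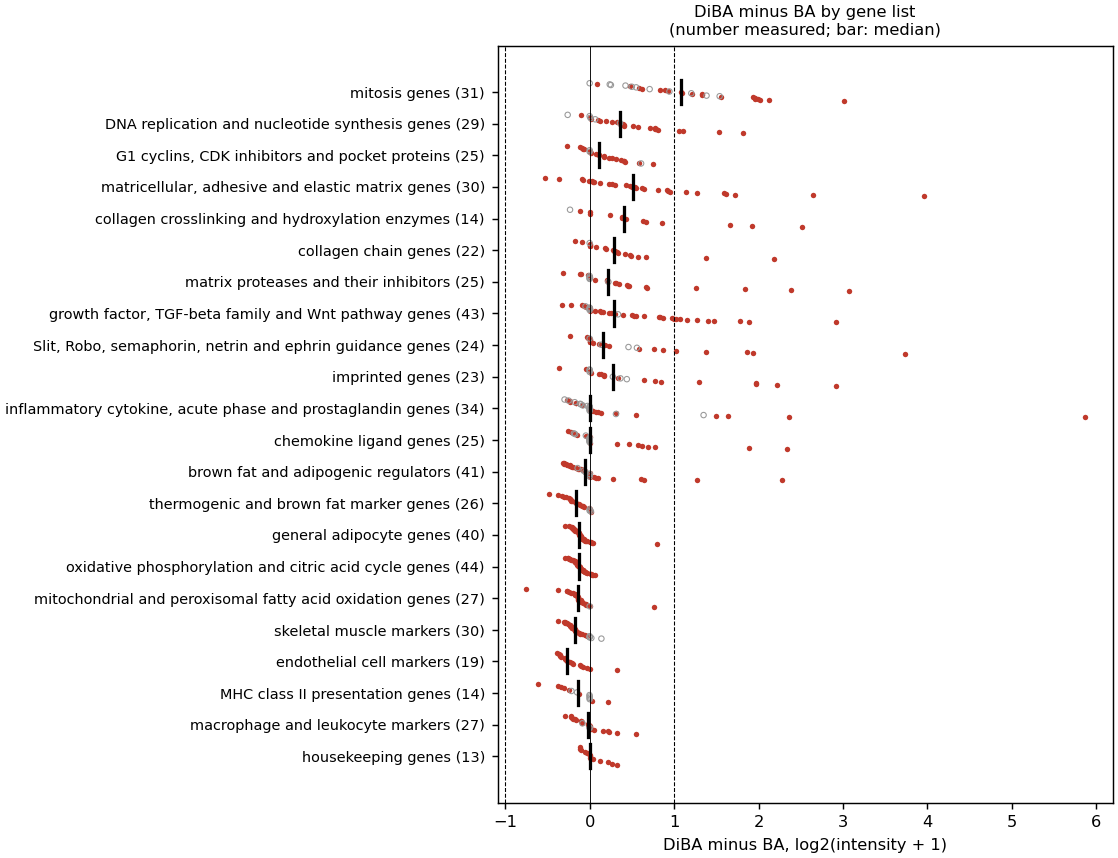
DiBA minus BA on the log2(intensity + 1) scale for the measured members of each gene list, with filled points for genes that passed the level filter, open points for those that did not, black bars for the median and dashed lines at 2-fold. Mitosis genes have the highest median, 1.08, the matrix and growth factor lists have long upper tails, and the adipocyte, mitochondrial, muscle and endothelial lists sit just below 0.

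Of 8 measured sex-linked genes, 1 passed 2-fold. Xist, the long noncoding RNA by which female cells shut down an X chromosome (chrX:103460373-103483233, GRCm38.p6), had 1748 in fibroblasts, 1155 in DiBA and 22.0 in BA. DiBA was 50.2-fold above BA, or 16.5-fold with low intensities raised to 69.2. The Y-linked genes Eif2s3y, Uty and Kdm5d had 603, 319 and 179 in DiBA, 678, 373 and 190 in BA, and 187, 112 and 94.3 in fibroblasts. DiBA thus held a bright Xist signal together with Y-linked signals at 88.9%, 85.6% and 94.3% of BA. The fibroblast array likewise held a bright Xist signal together with Y-linked signals above 69.2, so the combination was not particular to DiBA. Kdm5c, an X-linked gene that escapes this silencing, differed by 0.23, and Eif2s3x, also on the list, by 0.05. With each array centred on its median, Kdm5c was at 0.15 and Eif2s3x at -0.02. The labels give no sex or number of animals, and what these values say of the source of the RNA was not tested.

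**Figure D4:**
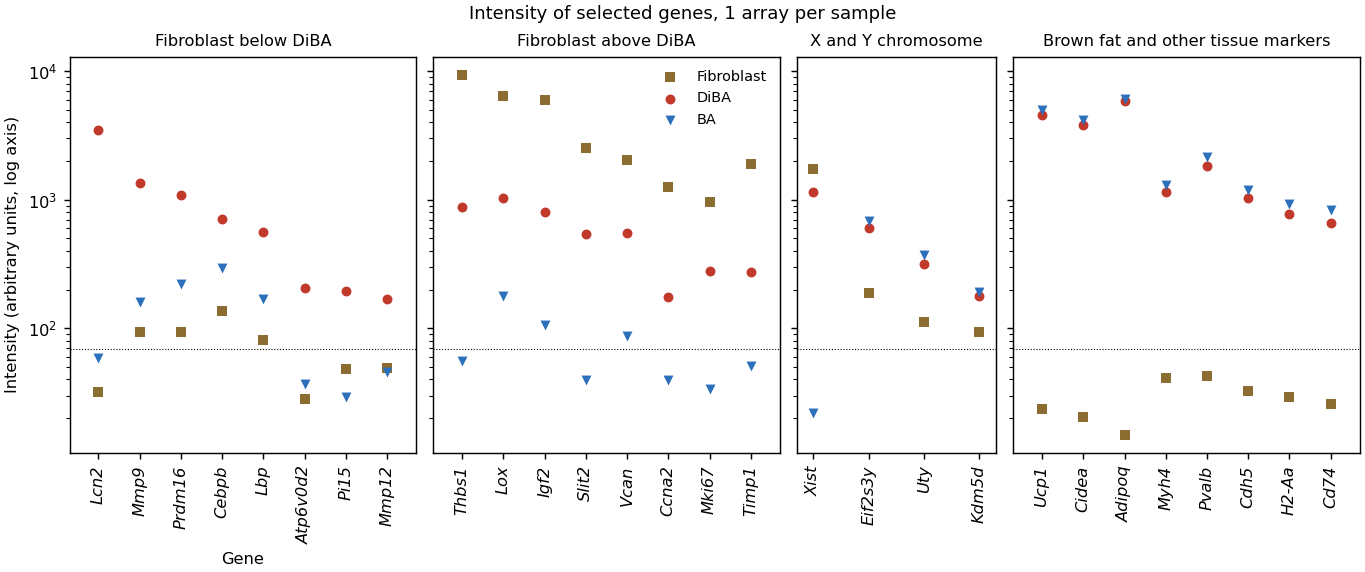
Intensity (log axis, arbitrary units) of selected genes in fibroblasts (squares), DiBA (circles) and BA (triangles), 1 array per sample, with a dotted line at 69.2. DiBA is highest for Lcn2 and Prdm16, lies between the others for Thbs1 and Mki67, and lies just under BA for Ucp1, Myh4 and Cdh5. DiBA and fibroblasts both have Xist and Y-linked signal.

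The lowest differences among genes passing the filter were Acot4, an acyl-CoA thioesterase, at -0.76 (58.0 in DiBA and 99.0 in BA), Cib4 at -0.70, Paqr6 at -0.67, H2-DMa at -0.62 and Cox6b2 at -0.61. Gstm6, Npr1, Rnf182 and Asb12 were at -0.60 and H2-T24 at -0.59. Npr1, a natriuretic peptide receptor, had 159 in DiBA and 241 in BA. None of these 10 genes exceeded 125 in fibroblasts. Agtr2, an angiotensin receptor, was at the opposite end at 3.04, with 210 in fibroblasts, 180 in DiBA and 21.1 in BA, or 2.58-fold with low intensities raised to 69.2. Capn6, a calpain-like gene, was at 2.58 with 174 in DiBA and 28.3 in BA.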

How the data were processed

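RNA of 3 mouse samples was hybridised to 3 single-colour arrays, and DiBA was compared with BA. The deposited values are linear intensities, 1 for each probe set of an array. Per the submitters' processing notes the software was Affymetrix Expression Console. Its version, and how it summarized, background-corrected and normalized the probes, is not given in the sources used here. Array quartiles lay close together, so no scaling was added.

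Of 28943 probe sets, 21789 carried 1 symbol in the platform table, 1621 carried several, and 5533 without an entry were left unnamed. Values were log2(intensity + 1), averaged over a gene's probe sets (999 genes had several). The level filter and the 2-fold threshold are those in the text. With 1 array per sample there is no test, and the number of arrays limits the precision.

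Genes named were 9 set genes, the 15 highest and 10 lowest differences, the 8 highest in each fibroblast class, and up to 6 members of each of 29 lists with the largest differences. Others named are list members or genes at a threshold, or are said to be singled out. The sets and lists were chosen with earlier results of these data known. The steps were tested on simulated data. Scripts ran on Python 3.11.15 with pandas 2.3.3 and numpy 2.4.6. Promoter and microRNA sequences are from RefSeq (GRCm38.p6). Alternatives covered scaling, the filter, low intensities, the pseudocount, the choice of probe set and the threshold.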

Additional observations from a re-analysis of the deposited data

How the results depend on the processing

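Against 194 genes past 2-fold with DiBA above BA, the count was 168 with arrays centred on their medians, 180 after quantile normalization, 146 with a pseudocount of 16, 197 with the brightest probe set per gene and 222 without a filter on intensity, and 0 genes were lower in each except the last, where 1 was, Nudt10 at -1.46, whose intensity was under 69.2 in both arrays. All 168 and all 180 were among the 194. With intensities under 69.2 raised to it, 137 genes were higher, the mitosis and DNA replication lists had 6, and 10 genes had a fibroblast value between BA and DiBA. With a 75th percentile filter, 76 genes were higher, 63 of them at or above DiBA in fibroblasts, 6 between and 7 at or below BA. The lists together then held 28 of 63, with 1 gene for mitosis and DNA replication, 9 for matrix, 8 for growth factors and guidance and 1 for inflammatory genes and chemokines. At 1.5-fold, 456 genes were higher and 11 lower, 400 of the higher at or above DiBA and 30 at or below BA in fibroblasts. The lists then held 113, with 27 for mitosis and DNA replication, 28 for matrix, 23 for growth factors and guidance and 2 for adipocyte and mitochondrial genes. At 3-fold, 72 genes were higher, 54, 11 and 7 by fibroblast class, and the lists held 36, with 8 for mitosis and DNA replication and 6 for growth factors and guidance. No gene past 2-fold among those chosen by the naming rule changed sign under the alternatives run. For most of them that outcome was fixed in advance. Filters, thresholds, raised low intensities and the pseudocount cannot reverse the order of both arrays in a probe set. Centring moved every gene by only 0.08. Genes named outside that rule were not followed through the alternatives. The array medians of DiBA and BA differed by 0.08 (log2). No paired analysis was possible because each group holds 1 array. Low signal limits the folds of the 96 higher genes under 69.2 in BA.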

Other observations

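Histone genes were chosen as a group because of their values, so their counts are a description. Of 26 measured core and linker histone genes of the replication clusters, 17 passed the level filter and 5 passed 2-fold, with 17 higher and 2 lower by any amount and a median difference of 0.44. H2ac15 stood at 2066 in fibroblasts, 928 in DiBA and 193 in BA, and H1f5 at 904, 281 and 94.7. Near-identical histone copies can share probes, so single members are uncertain.

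Several bright genes of mesenchymal cells that were on no list also lay between the other arrays (picked with their values in view). Cdh11, a mesenchymal cadherin, stood at 4258 in fibroblasts, 543 in DiBA and 106 in BA, and Crabp1, a retinoic acid binding protein gene, at 7046, 350 and 108. Osmr, the oncostatin M receptor gene, stood at 1401, 778 and 210, and Lgals3, which encodes galectin 3, at 829, 583 and 171. Errfi1, a feedback inhibitor of growth factor receptors, and Gas6, a receptor tyrosine kinase ligand, were at 1179 and 1094 in DiBA, 438 and 485 in BA, and 1455 and 1362 in fibroblasts.

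Probe sets without a single gene symbol numbered 7154, of which 2588 passed the same level filter. DiBA exceeded BA by 2-fold or more in 58 of these, and the reverse held for 0, with differences from -0.70 to 4.84 (log2).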
